A study of Saccharomyces cerevisiae with 8 samples.

Results

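The comparison described here set budding yeast cells given rapamycin for 60 min against untreated cells of the same strain. All groups were strain BY4741, a MATa haploid whose label lists deletions of HIS3, LEU2, MET15 and URA3, grown at 30 °C in rich YPD medium to an optical density of 0.5. The treated groups received 200 ng/mL rapamycin. Poly(A) RNA was sequenced from strand-specific dUTP libraries, 2 biological replicates per group. The untreated and 60 min libraries are 4 of the 8 libraries of the series, and the 2 libraries taken at 10 min are given beside them. Both times share the untreated control. Members were all genes with a mean scaled signal of at least 1 over the 6 wild-type libraries, which left 6127 of 6569 genes.

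Scaled signal is the authors' value per gene and library after division by 1 constant per library, and "signal" below means this value. The labels do not say whether it is per gene length, so a signal is compared only with that of the same gene in another library. Genes were tested with limma on log2(scaled signal + 1), and a log2 change is 60 min minus untreated unless a time is named. A gene was called higher or lower at a Benjamini-Hochberg adjusted p under 0.05. Of all genes tested, 38.6% were called higher at 60 min and 38.5% lower, 77.1% in either direction. Called changes of at least 2-fold were 16.6% higher and 17.2% lower. At 60 min the libraries did not overlap the untreated libraries for 88.1% of genes. These shares are the background for the counts of list members, and the median log2 change over all genes was -0.004. Median-of-ratios scaling, which levels the typical gene between libraries, gave factors of only 0.999 to 1.005 on these values. The authors' scaling had thus already levelled the typical gene. That median and the near-equal shares higher and lower therefore largely reflect the scaling, and are not a measure of change in total RNA.

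Rapamycin binds the prolyl isomerase Fpr1, and the pair inhibits TORC1, the kinase complex by which yeast couples growth to nitrogen and amino acid supply. Active TORC1 promotes transcription of ribosomal protein and ribosome assembly genes, partly through the kinase Sch9 and the factors Sfp1, Ifh1 and Dot6/Tod6. It holds the GATA factors Gln3 and Gat1, the retrograde factors Rtg1/Rtg3 and the stress factors Msn2/4 in the cytoplasm, and it restrains autophagy.

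Marker genes were checked against the strain. The a-specific genes MFA1 and STE2, for a pheromone precursor and the receptor for alpha factor, were present in all 4 libraries, with lowest signals of 821 and 719.7. The alpha factor gene MF(ALPHA)1 had signals of 3.25 and 5.02 in the untreated libraries and 2.13 and 15.5 at 60 min. MF(ALPHA)2 had signals of 1.52 and 3.09 in the untreated libraries and 2.27 and 8.62 at 60 min. Both were highest in the second 60 min library, and the part of this in other results was not tested. URA3 was at 0 in these libraries, and LEU2 and MET17 (MET15) at 0.771 or less, and HIS3 was not analysed here. Summed scaled signal was 3306674 and 3206357 in the untreated libraries, 2855900 and 2753329 at 10 min and 2037245 and 2025663 at 60 min. When each library is instead scaled to its total, the median log2 change of all genes becomes 0.66. List medians between -0.66 and 0 then turn positive, and the value under that total-signal scaling is given beside each. Medians a little below -0.66, such as those of the nuclear pore, glycolysis and pyrimidine lists, then lie near 0. In bulk RNA, less transcript per cell and fewer cells that hold it cannot be told apart. The labels do not say whether counting used the strand of the reads. This touches genes that overlap a reading frame on the other strand, such as DAL80, DAL7, GAT1, GLK1, GPD1, GPH1, HSF1 and PAU24. Other named genes may be touched too.

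Upstream sequences are shown for genes of some of the lists described below. In each case the gene shown is the most changed member of its list whose window held the motif, so its change is part of the choice. Windows run from 250 bases before the start codon to 50 bases after it, 5′ to 3′ on the coding strand, from the R64 genome (sacCer3 coordinates). Capitals mark only the motif named for that gene, on either strand. DAL80 (chrXI:506648-506947, + strand) encodes a GATA repressor of nitrogen genes and GAP1 (chrXI:514813-515112, + strand) the general amino acid permease. Both show GATAAG, the core bound by GATA factors.

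DAL80: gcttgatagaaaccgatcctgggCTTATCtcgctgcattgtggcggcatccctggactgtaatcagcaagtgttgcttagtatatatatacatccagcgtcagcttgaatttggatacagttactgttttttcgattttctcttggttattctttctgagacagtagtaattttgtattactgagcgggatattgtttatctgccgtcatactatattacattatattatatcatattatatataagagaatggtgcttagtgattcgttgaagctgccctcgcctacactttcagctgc
GAP1: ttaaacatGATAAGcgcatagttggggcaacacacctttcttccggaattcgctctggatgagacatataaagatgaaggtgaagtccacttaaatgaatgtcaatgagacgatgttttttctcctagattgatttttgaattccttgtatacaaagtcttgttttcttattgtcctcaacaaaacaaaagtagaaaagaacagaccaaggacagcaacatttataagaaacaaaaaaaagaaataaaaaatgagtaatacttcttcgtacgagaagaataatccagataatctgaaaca

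DBP2 (chrXIV:413389-413688, + strand), an RNA helicase of 60S assembly and mRNA metabolism, and RPA43 (chrXV:960133-960432, - strand), an RNA polymerase I subunit, show GATGAG and AAAATTT. These are the cores of the PAC and RRPE elements of ribosome assembly promoters, which Dot6/Tod6 and Stb3 bind. RPS24B (chrIX:232320-232619, - strand), a small-subunit ribosomal protein gene, shows CCCANAC, a core of the Rap1 site.

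DBP2: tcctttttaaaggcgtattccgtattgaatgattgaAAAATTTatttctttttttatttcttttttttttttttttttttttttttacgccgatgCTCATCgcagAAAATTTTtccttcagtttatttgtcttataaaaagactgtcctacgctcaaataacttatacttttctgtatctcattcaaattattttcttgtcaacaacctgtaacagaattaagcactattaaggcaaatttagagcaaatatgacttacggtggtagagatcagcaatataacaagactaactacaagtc
RPA43: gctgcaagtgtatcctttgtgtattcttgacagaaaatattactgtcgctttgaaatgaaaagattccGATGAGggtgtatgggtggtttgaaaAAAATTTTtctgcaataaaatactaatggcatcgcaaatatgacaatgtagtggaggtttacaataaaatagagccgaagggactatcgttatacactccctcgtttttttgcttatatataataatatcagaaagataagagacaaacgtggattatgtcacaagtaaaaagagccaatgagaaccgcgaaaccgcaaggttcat
RPS24B: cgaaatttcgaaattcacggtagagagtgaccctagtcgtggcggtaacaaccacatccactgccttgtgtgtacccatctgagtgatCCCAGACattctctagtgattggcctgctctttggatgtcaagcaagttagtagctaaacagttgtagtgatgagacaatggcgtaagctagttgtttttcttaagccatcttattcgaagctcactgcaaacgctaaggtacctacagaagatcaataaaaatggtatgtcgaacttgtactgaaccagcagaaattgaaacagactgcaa

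DDR2 (chrXV:231706-232005, - strand), a small protein of the general stress response, shows AGGGG, the stress response element bound by Msn2 and Msn4. ARG4 (chrVIII:141353-141652, - strand), argininosuccinate lyase, shows TGACTC, the core bound by Gcn4.

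DDR2: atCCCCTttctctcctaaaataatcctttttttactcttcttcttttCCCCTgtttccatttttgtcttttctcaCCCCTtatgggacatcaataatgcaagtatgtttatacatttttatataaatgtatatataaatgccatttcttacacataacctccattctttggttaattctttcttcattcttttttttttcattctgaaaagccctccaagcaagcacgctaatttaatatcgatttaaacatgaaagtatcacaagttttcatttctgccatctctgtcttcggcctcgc
ARG4: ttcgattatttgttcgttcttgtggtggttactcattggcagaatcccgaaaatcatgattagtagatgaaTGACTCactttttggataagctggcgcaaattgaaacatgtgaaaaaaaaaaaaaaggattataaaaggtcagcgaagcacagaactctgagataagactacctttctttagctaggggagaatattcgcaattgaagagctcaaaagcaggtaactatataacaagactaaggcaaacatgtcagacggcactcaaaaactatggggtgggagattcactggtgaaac

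In DAL80 the GATAAG match lay 227 bases before the start codon on the other strand, and in GAP1 242 bases before it on the coding strand. DBP2 held GATGAG at 155 and AAAATTT at 214, 145 and 144 bases before its start, where the last pair overlap as opposite-strand readings of the same letters. RPA43 held GATGAG at 182 bases and AAAATTT at 156 and 155, RPS24B its Rap1 core at 162 and ARG4 its Gcn4 core at 179. DDR2 held 3 copies of AGGGG, at 248, 203 and 175 bases. Over the 5631 genes with such a window, GATGAG was in 20.4% and AAAATTT in 23.4%. Among the 957 of them called at least 2-fold lower, the shares were 40.2% and 50.6%, and among the 913 called at least 2-fold higher they were 15.6% and 14.1%. The assembly factor lists held them often. GATGAG was in 67 of 73 windows of 40S assembly genes and 70 of 80 of 60S assembly genes, and AAAATTT in 69 of 73 and 76 of 80. Both were also common among the 667 genes at least 2-fold lower outside the ribosomal protein, assembly and RNA polymerase I and III lists, at 33.1% and 43.9%. Ribosomal protein genes, which fell further, held GATGAG in 8 of 75 large-subunit and 7 of 48 small-subunit windows. Some lists that were mostly higher held GATGAG too. It was in 14 of 29 windows of seripauperin, DAN and TIR genes and 5 of 10 of allantoin and urea use.

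On the rising side, GATAAG was in 23.001% of windows of genes at least 2-fold higher, 10.1% of those at least 2-fold lower and 15.01% of all. AGGGG was in 34.5%, 13.1% and 21.7%, and TGACTC in 14.1%, 6.17% and 8.17%. Stress protein genes held AGGGG in 22 of 34 windows, and arginine synthesis genes TGACTC in 6 of 12. Lists that were not mostly higher held these motifs too. TGACTC was in 7 of 11 windows of branched-chain amino acid synthesis, 12 of 20 of threonine to asparagine synthesis and 9 of 21 of tRNA synthetases, and AGGGG in 9 of 18 of the pentose phosphate pathway. Of the other motifs, CCCANAC was in 14 of 75 large-subunit and 7 of 48 small-subunit ribosomal protein windows, against 6.38% of all. GGTGGC, the core of the element bound by the proteasome regulator Rpn4, was in 30 of 35 proteasome windows, against 7.01% of all. CCAAT, the core of the Hap2/3/4/5 site, was in 31 of 39 respiratory windows, against 43.5% of all. GTCAC, the core bound by Rtg1/Rtg3, was in 26.3% of all windows, CACGTG, the E box bound by Pho4 and Cbf1, in 2.88% and TATAAA in 45.0%. TATAAA was in 52.6% of the windows of genes at least 2-fold higher and 40.5% of those at least 2-fold lower. Genes transcribed away from each other can share a window, and a match is a description of letters and not of a bound site.

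**Figure D1:**
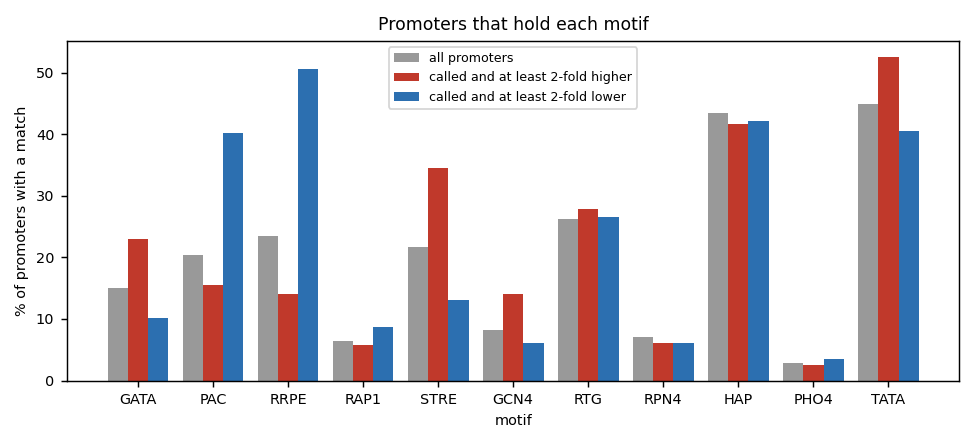
Share of 300-base upstream windows that held each of 11 motifs on either strand (y axis, %), for all genes with a window (grey), genes called at least 2-fold higher at 60 min (red) and at least 2-fold lower (blue). The PAC and RRPE cores were most frequent in the lower group, at 40.2% and 50.6%, and the GATA, STRE and GCN4 cores in the higher group.

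Transcripts for the translation machinery showed the deepest falls. Of 138 cytosolic ribosomal protein genes, 137 were lower, with median log2 changes of -4.31 for the large and -4.36 for the small subunit. RPS22A, a small-subunit gene, had signals of 18988 and 15238 in the untreated libraries and 196 and 209.7 at 60 min. The groups were 84.4-fold apart (log2 change -6.38, SE 0.115, limma adjusted p = 6.29e-09). RPL26B, for a large-subunit protein near the exit of the nascent chain, had signals of 4901 and 6436 in the untreated libraries and 107 and 116 at 60 min (log2 change -5.64). The exception was RPL15B, another large-subunit gene, with signals of 405 and 384 in the untreated libraries and 496 and 496 at 60 min. Its 60 min libraries lay just above the untreated ones (log2 change 0.33, SE 0.0653, limma adjusted p = 0.00209). Most are paired with a near-identical copy, and the labels do not say how reads that match both were assigned.

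The fall was of similar size with and without introns. Ribosomal protein genes with an intron (95) had a median log2 change of -4.37, and the 43 without one -4.23. Outside these lists, 169 genes with introns had a median of -0.038 by the authors' scaling and 0.63 by the total, with 62 higher and 71 lower. As a share of a library's summed signal, ribosomal protein genes held 28.4% and 29.7% in the untreated libraries and 2.47% and 2.51% at 60 min. Divided by gene length, the mean share went from 30.8% to 3.72%, and multiplied by it from 22.4% to 1.66%. The large-subunit genes alone held 16.4% and 17.1% before treatment, 14.0% and 13.3% at 10 min and 1.54% and 1.56% at 60 min. Most of the loss of share therefore lay between 10 and 60 min.

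**Figure D2:**
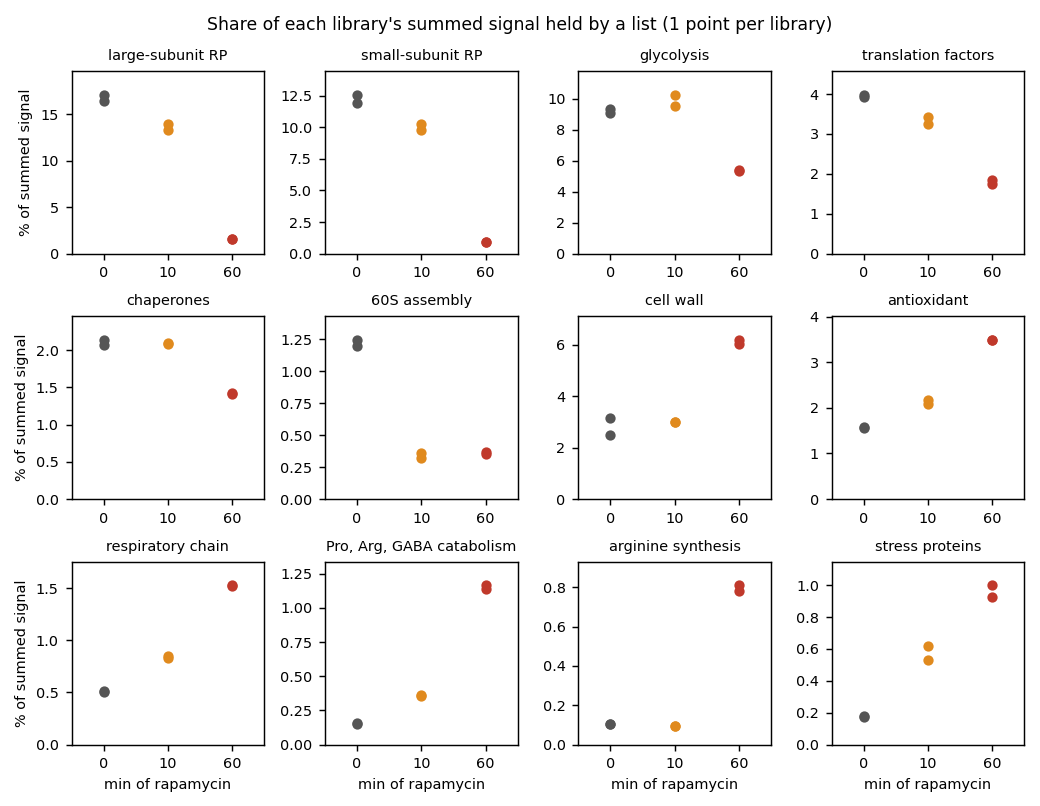
Share of each library's summed scaled signal (y axis, %, from 0) held by 12 gene lists, by min of rapamycin (x axis, 0 being untreated), with 1 point per library. The ribosomal protein panels are under 2% at 60 min, the respiratory, arginine synthesis, nitrogen catabolism and stress panels are highest there, and in the 60S assembly panel the 10 and 60 min libraries lie together. Summed signal was lower at 60 than at 10 min, so an equal share is a lower signal. The median log2 change of the 60S assembly list was -2.45 at 10 min and -2.67 at 60 min.

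Ribosome assembly genes were lower, without exception in the 40S list. All 74 genes of the small-subunit processome and 40S assembly were called lower (median log2 change -2.70), as were 79 of 80 genes of 60S assembly (median -2.67). HAS1, a helicase of both pathways, had signals of 649 and 606 in the untreated libraries, 158 and 178 at 10 min and 30.4 and 21.5 at 60 min. Its 10 min libraries lay between the other groups (log2 change -4.56, SE 0.148, limma adjusted p = 6.80e-08). RRP36, a processome protein, had signals of 250.4 and 205 in the untreated libraries, 10.2 and 14.9 at 10 min and 13.3 and 10.8 at 60 min. The 10 and 60 min libraries of RRP36 overlapped, and its log2 changes were -4.09 at 10 min and -4.13 at 60 min. NOP1, the methyltransferase of box C/D small nucleolar particles, was at a log2 change of -3.99. GAR1, a protein of the box H/ACA particles, was at a log2 change of -3.89.

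Medians were nearer 0 for the polymerases that serve ribosomes and for translation factors. Among RNA polymerase I and III genes 4 of 35 were higher and 28 lower (median log2 change -1.153). RPA43 had signals of 586 and 577 in the untreated libraries and 29.4 and 27.4 at 60 min (log2 change -4.31, SE 0.0739, limma adjusted p = 6.29e-09). The 4 that rose were TFC3 and TFC4 of the polymerase III factor TFIIIC, BRF1 of TFIIIB and the polymerase III repressor MAF1, with log2 changes of 0.53, 0.48, 0.46 and 0.28. MAF1 was not called when the first untreated or either 60 min library, by library number, was left out (log2 changes 0.15, 0.27 and 0.29). Among translation factors 3 of 45 were higher and 39 lower (median -1.78), and among cytosolic tRNA synthetases 0 of 21 were higher and 19 lower (median -1.12). STM1, a ribosome-associated preservation factor, had signals of 9201 and 9499 in the untreated libraries and 802 and 813 at 60 min and the lowest log2 change of the translation list, -3.53. Elongation factor 3 has 2 genes that parted. HEF3, the form used less in rich medium, had signals of 9.46 and 9.43 in the untreated libraries and 56.5 and 54.3 at 60 min (log2 change 2.43, SE 0.101, limma adjusted p = 2.61e-07). YEF3, the main form, had signals of 2983 and 2875 in the untreated libraries and 657 and 559 at 60 min (log2 change -2.27, SE 0.0945, limma adjusted p = 2.61e-07). HEF3 was higher and YEF3 lower at 60 min, with no overlap for either. DBP1, a close relative of the initiation helicase Ded1, rose by 1.45 on the log2 scale.

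Nuclear pore and karyopherin genes were mostly called lower by the authors' scaling, as 1 of 44 were higher and 35 lower (median log2 change -0.74). KAP123, the importin that carries ribosomal proteins, had signals of 347 and 299 in the untreated libraries and 65.7 and 61.8 at 60 min (log2 change -2.32). The gene that rose was GSP2, a copy of the Ran GTPase, with signals of 105 and 105 in the untreated libraries and 929.9 and 879.7 at 60 min (log2 change 3.09, SE 0.0669, limma adjusted p = 1.09e-08). GSP1, the main Ran gene, was at a log2 change of -1.79.

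Regulators above these genes moved less, and by the authors' scaling more were lower than higher. Among 15 regulators of ribosomal protein and assembly genes, 2 were higher and 10 lower (median log2 change -0.49, or 0.18 under total-signal scaling). Called changes of at least 2-fold were 5 lower and 1 higher, and the lowest log2 change was -2.70. RAP1, the general activator bound at ribosomal protein promoters, had signals of 101 and 109 in the untreated libraries, 80.8 and 90.6 at 10 min and 27.2 and 27.4 at 60 min. It was lowest at 60 min, where it fell by 1.91 on the log2 scale. TOD6, a repressor of PAC promoters, had signals of 233 and 204 in the untreated libraries, 6.03 and 5.80 at 10 min and 58.9 and 46.6 at 60 min. It was lowest at 10 min and still below untreated at 60 min (log2 change -2.04, SE 0.125, limma adjusted p = 2.30e-06). CRF1, a corepressor of ribosomal protein genes, rose by 1.05 on the log2 scale, and HMO1, an HMG-box activator, was at a log2 change of -1.03. SFP1, an activator of assembly genes, had signals of 91.5 and 89.6 in the untreated libraries and 86.8 and 94.1 at 60 min and was not called.

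Among TORC1 and its effectors 16 of 31 were higher and 9 lower, and none was called at least 2-fold lower. TOR1, a kinase subunit, had signals of 17.3 and 18.1 in the untreated libraries and 29.6 and 32.6 at 60 min (log2 change 0.78), and TOR2, which also serves TORC2, was not called (log2 change -0.071). NPR2, NPR3 and IML1, the complex that restrains TORC1 when amino acids are scarce, all rose, with log2 changes of 0.85, 0.80 and 1.08. NPR1, the kinase that TORC1 inhibits and that stabilises permeases, had signals of 56.6 and 51.3 in the untreated libraries and 141 and 159 at 60 min (log2 change 1.46, SE 0.0865, limma adjusted p = 1.92e-06). SAP185, a partner of the phosphatase Sit4, had signals of 107 and 111 in the untreated libraries, 15.6 and 17.4 at 10 min and 68.5 and 70.01 at 60 min, the 10 min libraries being lowest. The log2 change of SAP185 was -0.65, or 0.027 under total-signal scaling.

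**Figure D3:**
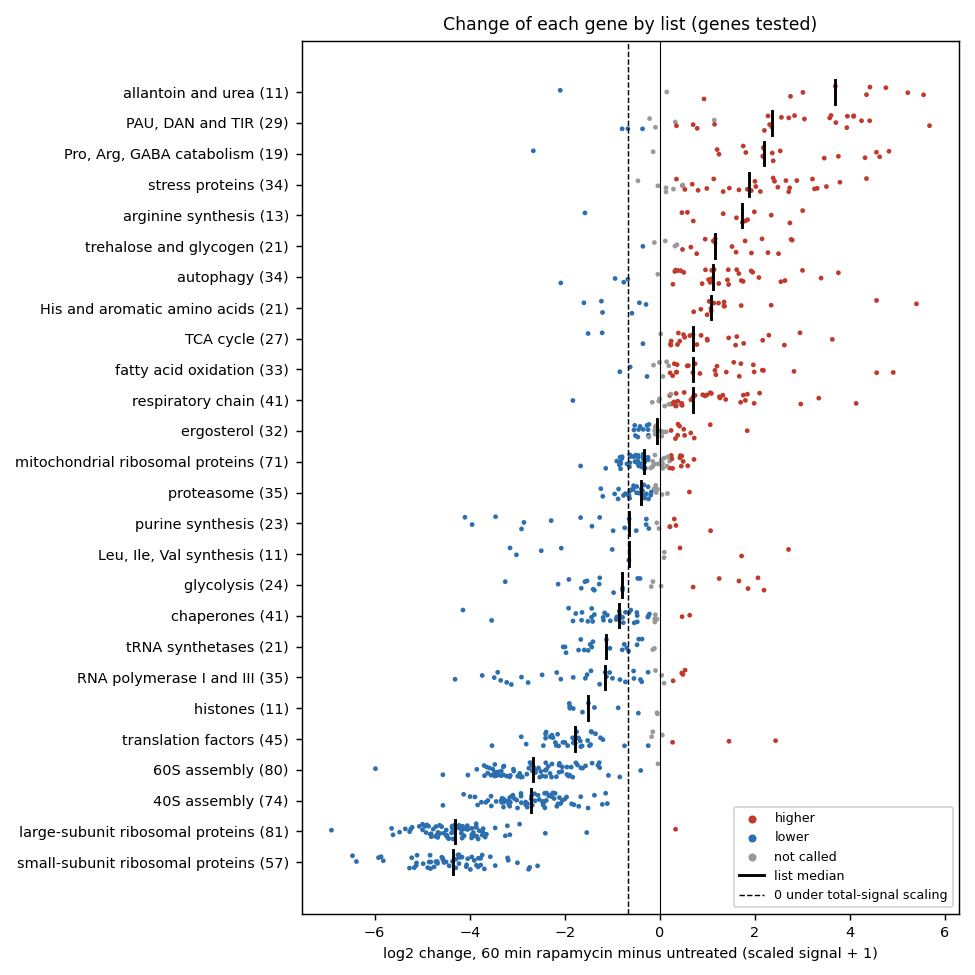
Log2 change of each tested gene at 60 min against untreated (x axis), 1 point per gene, for 26 lists ordered by median (black bar), with the number of genes tested in parentheses. Red genes were called higher, blue lower and grey not called. The dashed line marks where 0 would lie under total-signal scaling, and list medians between it and the solid line change side.

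Genes that let yeast live on poor nitrogen sources were higher. Of the GATA factors and Ure2, 6 of 7 were higher and 0 lower. The activator gene GLN3 had signals of 69.8 and 65.4 in the untreated libraries, 57.6 and 60.6 at 10 min and 189.9 and 192 at 60 min. It was high at 60 min and at 10 min lay below untreated (log2 change 1.48, SE 0.0713, limma adjusted p = 5.77e-07). GAT1, the other activator, had signals of 128 and 96.1 in the untreated libraries, 724 and 814 at 10 min and 246 and 287 at 60 min. It was highest at 10 min and still above untreated at 60 min (log2 change 1.26, SE 0.141, limma adjusted p = 8.39e-05). DAL80 had signals of 1.54 and 1.66 in the untreated libraries, 81.5 and 91.6 at 10 min and 313 and 334 at 60 min. Its 60 min mean was 202-fold the untreated mean. The repressor gene GZF3 rose by 1.07 on the log2 scale, and DAL81, a coactivator, was not called (log2 change 0.029).

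In ammonium transport and assimilation 10 of 12 were higher and 1 lower. The ammonium permease MEP2 had signals of 28.3 and 31.1 in the untreated libraries, 2403 and 2188 at 10 min and 1939 and 1970 at 60 min. It was high at both times (log2 change 5.99, SE 0.0792, limma adjusted p = 5.02e-09). The permease MEP1 had signals of 28.4 and 24.0 in the untreated libraries, 552 and 508 at 10 min and 158 and 139 at 60 min. Its 60 min libraries lay between the other groups (log2 change 2.46). Glutamine synthetase GLN1 had signals of 2522 and 2321 in the untreated libraries, 11808 and 11249 at 10 min and 7638 and 7191 at 60 min. GDH1, the main NADPH glutamate dehydrogenase, had signals of 1623 and 1502 in the untreated libraries, 6869 and 6172 at 10 min and 4684 and 4421 at 60 min. Both were highest at 10 min, with 60 min log2 changes of 1.61 and 1.54. Glutamate synthase GLT1 had signals of 40.7 and 42.2 in the untreated libraries, 54.4 and 53.3 at 10 min and 175 and 171 at 60 min. GDH3, the second NADPH dehydrogenase, had signals of 16.9 and 14.9 in the untreated libraries, 50.8 and 42.7 at 10 min and 464 and 415 at 60 min. Both were highest at 60 min, with log2 changes of 2.03 (SE 0.0690, limma adjusted p = 8.58e-08) and 4.70 (SE 0.111, limma adjusted p = 1.48e-08). The gene that fell was ATO3, a putative ammonium exporter, with signals of 313 and 352 in the untreated libraries and 43.2 and 46.4 at 60 min (log2 change -2.86).

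In allantoin and urea use 9 of 11 were higher and 1 lower (median log2 change 3.69). DAL5, the allantoate permease, had signals of 25.9 and 27.8 in the untreated libraries, 173 and 161 at 10 min and 1353 and 1252 at 60 min. The urea transporter DUR3 had signals of 13.4 and 13.7 in the untreated libraries, 448 and 451 at 10 min and 316 and 303 at 60 min. DAL5 was highest at 60 min and DUR3 at 10 min, and at 60 min both were called higher, by 5.55 and 4.42 on the log2 scale. DAL1, DAL2, DAL3 and DAL7, enzymes of the pathway, had log2 changes of 3.69, 4.35, 5.22 and 4.75. FUI1, the uridine permease placed in this list, fell by 2.10 on the log2 scale.

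In proline, arginine and GABA catabolism 17 of 19 were higher and 1 lower (median log2 change 2.18). Proline oxidase PUT1 had signals of 14.6 and 14.2 in the untreated libraries, 187 and 198 at 10 min and 377 and 379 at 60 min. The GABA permease UGA4 had signals of 6.65 and 7.26 in the untreated libraries, 57.1 and 52.5 at 10 min and 215 and 232 at 60 min. Succinate semialdehyde dehydrogenase UGA2 had signals of 42.1 and 43.2 in the untreated libraries, 142 and 126 at 10 min and 991 and 1062 at 60 min. In each the 3 groups did not overlap and 60 min was highest, with log2 changes of 4.62, 4.82 and 4.56. The cytosolic asparaginase ASP1 was lower, with signals of 848 and 807 in the untreated libraries and 142 and 119 at 60 min (log2 change -2.66, SE 0.0915, limma adjusted p = 9.41e-08).

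Amino acid and peptide permeases split, as 19 of 34 were higher and 11 lower. GAP1 had signals of 21.8 and 29.4 in the untreated libraries, 2884 and 2640 at 10 min and 2794 and 2723 at 60 min. The libraries of the 2 times overlapped, far above untreated (log2 change 6.71, SE 0.130, limma adjusted p = 7.94e-09). AGP1, a broad permease under control of the Ssy1 sensor, had signals of 88.3 and 78.0 in the untreated libraries, 2357 and 2249 at 10 min and 1207 and 1179 at 60 min (log2 change 3.83). The peptide transporter OPT2 had signals of 3.31 and 2.97 in the untreated libraries, 94.7 and 94.9 at 10 min and 33.7 and 37.96 at 60 min. OPT1, of the same family, had signals of 79.4 and 91.5 in the untreated libraries, 176 and 174 at 10 min and 7.94 and 10.3 at 60 min. At 60 min OPT2 was above untreated (log2 change 3.15) and OPT1, which was high at 10 min, was below it (log2 change -3.10).

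Other permeases were lower at 60 min. The methionine permease MUP1 had signals of 171 and 230.2 in the untreated libraries, 315 and 279 at 10 min and 8.42 and 8.74 at 60 min. TAT1, for branched-chain and aromatic amino acids, had signals of 429 and 483 in the untreated libraries, 488 and 442 at 10 min and 42.8 and 37.7 at 60 min. At 10 min MUP1 lay above untreated and TAT1 overlapped it, while at 60 min both were lowest, with log2 changes of -4.38 (SE 0.136, limma adjusted p = 5.49e-08) and -3.47 (SE 0.0961, limma adjusted p = 3.23e-08). MMP1, the S-methylmethionine permease, was at a log2 change of -3.15.

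Genes of mitochondrial carbon metabolism were mostly higher. In the retrograde response 12 of 13 were higher and 0 lower, among them the regulator gene RTG3 (log2 change 0.87), while RTG1 was not called (log2 change 0.037). Without the first untreated library RTG1 was called lower (-0.28 on the log2 scale) and without the second higher (0.35). CIT2, the peroxisomal citrate synthase by which this response is usually read, had signals of 195 and 213 in the untreated libraries, 2453 and 2219 at 10 min and 3137 and 2998 at 60 min. It was high at both times (log2 change 3.91, SE 0.0845, limma adjusted p = 1.09e-08). PDH1, of propionate metabolism, had signals of 11.9 and 12.6 in the untreated libraries, 55.8 and 38.2 at 10 min and 195 and 169 at 60 min. DLD3, a D-lactate dehydrogenase, had signals of 770.3 and 915 in the untreated libraries, 2665 and 2415 at 10 min and 5236 and 4710 at 60 min. Both were highest at 60 min (log2 changes 3.78 and 2.56).

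Tricarboxylic acid cycle genes were called higher for 23 and lower for 3 of 27 (median log2 change 0.70). The mitochondrial citrate synthase CIT1, its minor form CIT3 and aconitase ACO1 had log2 changes of 2.62, 2.95 and 2.16. The malic enzyme MAE1 had signals of 906 and 711 in the untreated libraries, 123 and 158 at 10 min and 276 and 286 at 60 min, lowest at 10 min, and fell by 1.51 on the log2 scale. In the glyoxylate cycle and gluconeogenesis 15 of 19 were higher and 2 lower (median 1.21). Malate synthase MLS1 had signals of 2.13 and 2.96 in the untreated libraries, 6.71 and 5.13 at 10 min and 163 and 149.9 at 60 min. Most of its rise lay after 10 min (log2 change 5.48, SE 0.167, limma adjusted p = 5.06e-08). MDH2, the cytosolic malate dehydrogenase, was at a log2 change of -1.37.

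Oxidative phosphorylation genes were higher by less but broadly, as 34 of 41 were higher and 1 lower (median log2 change 0.69). NDE2, an external NADH dehydrogenase, had signals of 2.502 and 2.39 in the untreated libraries and 63.9 and 54.9 at 60 min (log2 change 4.13, SE 0.144, limma adjusted p = 1.04e-07). INH1, the inhibitor of the ATP synthase, had signals of 61.6 and 54.7 in the untreated libraries and 256 and 247 at 60 min (log2 change 2.10). Forms used at low oxygen stood among them. COX5B, the hypoxic form of a cytochrome c oxidase subunit, had signals of 139.6 and 154 in the untreated libraries, 459 and 431 at 10 min and 1473 and 1521 at 60 min. COX5A, the aerobic form, had signals of 486 and 485 in the untreated libraries, 685 and 698 at 10 min and 673 and 661 at 60 min. The log2 changes were 3.34 and 0.46. For cytochrome c, the hypoxic CYC7 had signals of 17.4 and 22.2 in the untreated libraries, 159.6 and 146 at 10 min and 167 and 154 at 60 min and a log2 change of 2.96, and the aerobic CYC1 had one of 0.95. The gene that was lower is also a hypoxic form, AAC3, an ADP/ATP carrier, with signals of 85.5 and 99.96 in the untreated libraries and 26.9 and 23.8 at 60 min (log2 change -1.83, SE 0.106, limma adjusted p = 1.63e-06).

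Mitochondrial ribosomal protein genes were called higher for 11 and lower for 44 of 71 (median log2 change -0.33, or 0.34 under total-signal scaling). In mitochondrial import and carriers 10 of 44 were higher and 21 lower (median -0.22, or 0.45 under total-signal scaling). The GTP/GDP carrier GGC1 had signals of 468 and 498 in the untreated libraries and 1735 and 1615 at 60 min (log2 change 1.79), and the import receptor TOM20 had signals of 737 and 718 in the untreated libraries and 245 and 255 at 60 min (log2 change -1.54).

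Amino acid biosynthesis differed between pathways. In arginine synthesis 12 of 13 were higher and 1 lower (median log2 change 1.74). At 10 min 2 of these genes were higher and 10 lower, where 26.8% and 30.2% of all genes were. CPA1, the small subunit of carbamoyl phosphate synthetase, had signals of 660.2 and 544 in the untreated libraries, 177 and 155 at 10 min and 4073 and 3917 at 60 min. It lay below untreated at 10 min and above it at 60 min (log2 change 2.73, SE 0.109, limma adjusted p = 2.04e-07). Ornithine transcarbamylase ARG3 had signals of 90.4 and 71.0 in the untreated libraries, 33.3 and 35.4 at 10 min and 279 and 285 at 60 min, with the same order of groups (log2 change 1.80). ARG4 had signals of 668 and 689 in the untreated libraries, 591 and 570.2 at 10 min and 5548 and 5348 at 60 min. ARG82, an inositol polyphosphate kinase that acts with the arginine regulators, was at a log2 change of -1.58.

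In histidine and aromatic amino acid synthesis 15 of 21 were higher and 6 lower. Its steepest rises belong to breakdown of aromatic amino acids by the Ehrlich pathway. The decarboxylase ARO10 had signals of 52.9 and 60.1 in the untreated libraries, 122 and 128 at 10 min and 2366 and 2471 at 60 min. The transaminase ARO9 had signals of 97.0 and 106 in the untreated libraries, 144 and 147 at 10 min and 2386 and 2447 at 60 min. Both were above untreated at 10 min and far higher at 60 min, with log2 changes of 5.40 (SE 0.0808, limma adjusted p = 5.02e-09) and 4.56 (SE 0.0711, limma adjusted p = 5.23e-09). ARO4, an entry enzyme of the synthesis route, was at a log2 change of -1.598.

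In leucine, isoleucine and valine synthesis 3 of 11 were higher and 6 lower (median log2 change -0.65, or 0.015 under total-signal scaling). LEU1, isopropylmalate isomerase, had signals of 1515 and 1453 in the untreated libraries and 172 and 159.6 at 60 min (log2 change -3.15). LEU4, isopropylmalate synthase, had signals of 735 and 789 in the untreated libraries and 2605 and 2417 at 60 min (log2 change 1.72), and its second form LEU9 had signals of 359.9 and 388 in the untreated libraries and 44.3 and 46.2 at 60 min (log2 change -3.02). The branched-chain transaminases parted in the same way. BAT2, the cytosolic form, had signals of 1293 and 1403 in the untreated libraries, 4846 and 4496 at 10 min and 8810 and 8779 at 60 min (log2 change 2.71, SE 0.0879, limma adjusted p = 6.79e-08). BAT1, the mitochondrial form, had signals of 3324 and 2725 in the untreated libraries, 1817 and 1932 at 10 min and 536 and 529.7 at 60 min (log2 change -2.495, SE 0.103, limma adjusted p = 2.48e-07). Asparagine synthetase showed the same split, with ASN1 at a log2 change of 1.91 and ASN2 at a log2 change of -1.29.

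The lysine gene LYS1 rose by 2.49 on the log2 scale. In sulfur assimilation and methionine synthesis 15 of 31 were higher and 13 lower. MET28, a cofactor of the activator Met4, had signals of 24.0 and 25.8 in the untreated libraries and 276 and 270.1 at 60 min (log2 change 3.403, SE 0.0784, limma adjusted p = 1.39e-08). STR2, which starts the route from cysteine to methionine, had signals of 68.0 and 73.5 in the untreated libraries and 558 and 535 at 60 min (log2 change 2.93). CYS4 and CYS3, which lead from homocysteine to cysteine, fell by 2.09 and 1.41 on the log2 scale. MHT1, which uses S-methylmethionine, had signals of 42.9 and 48.8 in the untreated libraries and 4.50 and 4.26 at 60 min (log2 change -3.12).

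Nucleotide synthesis genes were mostly called lower by the authors' scaling. For purines 4 of 23 were higher and 16 lower (median log2 change -0.65, or 0.020 under total-signal scaling). Adenine deaminase AAH1 had signals of 569 and 499.5 in the untreated libraries, 71.2 and 80.5 at 10 min and 35.9 and 25.2 at 60 min. IMD4, an IMP dehydrogenase of the guanine branch, had signals of 979 and 874 in the untreated libraries, 319 and 325 at 10 min and 64.3 and 54.1 at 60 min. In both the 3 groups did not overlap and 60 min was lowest, with log2 changes of -4.10 (SE 0.157, limma adjusted p = 1.65e-07) and -3.95 (SE 0.0979, limma adjusted p = 1.90e-08). GMP synthase GUA1 was at a log2 change of -3.46, and HPT1, a purine phosphoribosyltransferase, was at a log2 change of -2.91.

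For pyrimidines 3 of 19 were higher and 13 lower (median log2 change -0.78). URA7, the main CTP synthase, had signals of 613 and 597 in the untreated libraries, 94.0 and 99.6 at 10 min and 18.0 and 17.1 at 60 min (log2 change -5.03, SE 0.0701, limma adjusted p = 5.02e-09). Dihydroorotate dehydrogenase URA1 had signals of 2864 and 3087 in the untreated libraries, 1553 and 1561 at 10 min and 143 and 131 at 60 min (log2 change -4.43, SE 0.0778, limma adjusted p = 6.29e-09). Both were lowest at 60 min. URA10, the second orotate phosphoribosyltransferase, had signals of 32.0 and 29.7 in the untreated libraries and 409 and 412 at 60 min (log2 change 3.69), whereas the main form URA5 was at a log2 change of -1.85. Ribose phosphate feeds both pathways. Ribose-5-phosphate isomerase RKI1 had signals of 636 and 583 in the untreated libraries, 175 and 182 at 10 min and 9.90 and 7.91 at 60 min, lowest at 60 min (log2 change -5.95, SE 0.105, limma adjusted p = 6.29e-09). PRS1, a PRPP synthetase, was at a log2 change of -2.53.

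Vitamin genes were higher mainly at 60 min. For vitamin B6 and thiamine 21 of 25 were higher and 1 lower (median log2 change 0.82), against 5 higher and 5 lower at 10 min. SNZ1, a subunit of the pyridoxal phosphate synthase, had signals of 109 and 96.5 in the untreated libraries, 90.2 and 81.8 at 10 min and 4472 and 3985 at 60 min. Its divergently transcribed partner SNO1 had signals of 12.4 and 13.1 in the untreated libraries, 12.4 and 15.2 at 10 min and 556 and 508 at 60 min. At 10 min SNZ1 lay just below untreated and SNO1 was level with it, and the 60 min log2 changes were 5.35 (SE 0.0935, limma adjusted p = 6.29e-09) and 5.27 (SE 0.110, limma adjusted p = 1.02e-08). The THI and remaining SNZ copies are near-identical, so the split between them is uncertain.

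Central carbon metabolism differed between enzymes of the same step. In glycolysis 6 of 24 were higher and 15 lower (median log2 change -0.79). TDH2, a main glyceraldehyde-3-phosphate dehydrogenase, had signals of 19892 and 15728 in the untreated libraries and 1797 and 1912 at 60 min (log2 change -3.25, SE 0.128, limma adjusted p = 1.86e-07). TDH1, the minor form, had signals of 222 and 194 in the untreated libraries and 764 and 745 at 60 min (log2 change 1.85, SE 0.131, limma adjusted p = 5.33e-06). TDH2 was lower and TDH1 higher, without overlap. TDH3, the third form, fell less than TDH2. It had signals of 81721 and 76639 in the untreated libraries and 32634 and 33232 at 60 min (log2 change -1.26). The main pyruvate kinase CDC19 had signals of 28049 and 23682 in the untreated libraries and 10248 and 11044 at 60 min (log2 change -1.28), and the second, PYK2, had signals of 43.3 and 35.8 in the untreated libraries and 163 and 173 at 60 min (log2 change 2.06). ADH1, the alcohol dehydrogenase of fermentation, had signals of 29971 and 31238 in the untreated libraries and 4903 and 4787 at 60 min and fell by 2.66 on the log2 scale.

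The hexose kinases differed in time. HXK2, the main hexokinase in glucose, had signals of 3412 and 3171 in the untreated libraries, 3829 and 3326 at 10 min and 779.8 and 711 at 60 min. At 10 min it overlapped untreated and at 60 min it was lowest (log2 change -2.14, SE 0.0984, limma adjusted p = 4.47e-07). HXK1 had signals of 53.3 and 56.5 in the untreated libraries, 834 and 623 at 10 min and 95.3 and 84.5 at 60 min. It was highest at 10 min and not far above untreated at 60 min (log2 change 0.70, SE 0.134, limma adjusted p = 0.00179). Glucokinase GLK1 had signals of 225 and 228 in the untreated libraries, 1751 and 1522 at 10 min and 558 and 521 at 60 min, with the same order of groups (log2 change 1.25). Hexose transporters were called higher for 4 and lower for 10 of 20 (median log2 change -0.40, or 0.26 under total-signal scaling). HXT2, a high-affinity transporter, had signals of 1164 and 908 in the untreated libraries, 1062 and 752 at 10 min and 50.7 and 35.2 at 60 min, low at 60 min (log2 change -4.57, SE 0.216, limma adjusted p = 5.17e-07). HXT1, the low-affinity form, was at a log2 change of -2.76, and RGT2, the sensor of high glucose, rose by 1.22 on the log2 scale.

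In the pentose phosphate pathway 5 of 19 were higher and 11 lower (median log2 change -0.29, or 0.39 under total-signal scaling). NQM1, the minor transaldolase, had signals of 18.6 and 14.3 in the untreated libraries and 172 and 153 at 60 min (log2 change 3.23). GND2, the minor phosphogluconate dehydrogenase, rose by 1.56 on the log2 scale, and its main form GND1 was at a log2 change of -0.86. In trehalose and glycogen metabolism 16 of 21 were higher and 1 lower (median 1.16). The glycogen synthase GSY1 had signals of 19.0 and 23.7 in the untreated libraries, 261 and 230.2 at 10 min and 28.8 and 24.7 at 60 min. It was high at 10 min and at 60 min was not called (log2 change 0.32, limma adjusted p = 0.0536). It was called higher without the second untreated or the second 60 min library (log2 changes 0.47 and 0.42). GSY2, the other synthase, had signals of 52.7 and 53.8 in the untreated libraries, 291 and 265 at 10 min and 266 and 257 at 60 min, the libraries of the 2 times overlapping (log2 change 2.27). Glycogen phosphorylase GPH1 was at a log2 change of 2.78. The trehalase NTH1 had signals of 119 and 123 in the untreated libraries, 317 and 289 at 10 min and 843 and 805 at 60 min, highest at 60 min (log2 change 2.76, SE 0.0728, limma adjusted p = 2.56e-08).

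**Figure D4:**
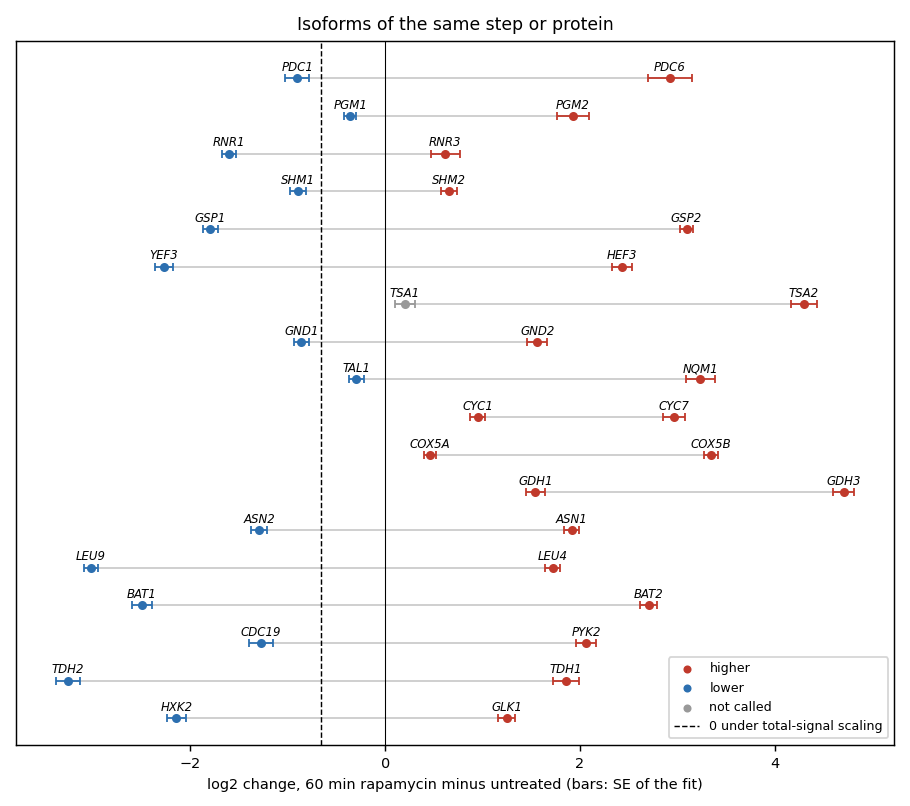
Log2 change at 60 min against untreated (x axis, with bars for the SE of the limma fit) for 18 pairs of genes that encode the same step or protein, each pair joined by a grey line and chosen with the values in view. Pairs with 1 form lower and the other higher cross 0, and under total-signal scaling, where 0 lies at the dashed line, TAL1 and PGM1 change to the higher side. TAL1 was not called without the second 60 min library (log2 change -0.26).

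Stress genes were higher, while most chaperone genes were called lower by the authors' scaling. Of stress protein genes, 28 of 34 were higher and 0 lower (median log2 change 1.88). DDR2 had signals of 11.4 and 6.57 in the untreated libraries, 138 and 107 at 10 min and 192 and 199 at 60 min (log2 change 4.35, SE 0.218, limma adjusted p = 7.22e-07). HSP12, a small protein that protects membranes, had signals of 32.8 and 37.4 in the untreated libraries, 60.3 and 55.1 at 10 min and 404 and 315 at 60 min. Most of its rise lay after 10 min (log2 change 3.31, SE 0.128, limma adjusted p = 1.70e-07). PHM8, a nucleotide phosphatase, had signals of 83.2 and 76.7 in the untreated libraries and 1131 and 1100 at 60 min (log2 change 3.79). TFS1, the inhibitor of carboxypeptidase Y, had signals of 104 and 108 in the untreated libraries and 1042 and 995 at 60 min (log2 change 3.25). Neither gene's groups overlapped. GPD1, which makes glycerol, had signals of 309 and 356 in the untreated libraries, 994 and 912 at 10 min and 338 and 308 at 60 min. It was high at 10 min and overlapped untreated at 60 min.

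Among chaperones 2 of 41 were higher and 35 lower (median log2 change -0.86). SSB1, a ribosome-bound Hsp70, had signals of 5986 and 5239 in the untreated libraries and 333 and 300.01 at 60 min (log2 change -4.14, SE 0.0959, limma adjusted p = 1.41e-08). Its near-copy SSB2 had signals of 4508 and 3824 in the untreated libraries and 381 and 333 at 60 min (log2 change -3.54, SE 0.115, limma adjusted p = 6.80e-08). Their signals fell 17.7-fold and 11.7-fold. EGD2, of the nascent chain complex at the ribosome, was at a log2 change of -1.92, and the Hsp70 gene SSA2 was at a log2 change of -1.77. HSP82 and SSA3, a heat-inducible Hsp90 and Hsp70, were not called, with log2 changes of -0.11 and -0.095. HSF1, the heat shock factor, rose by 0.47 on the log2 scale.

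Of 37 signalling genes around Msn2/4 and protein kinase A, 16 were higher and 9 lower, where 38.6% and 38.5% of all genes were. MSN4 had signals of 25.1 and 21.4 in the untreated libraries, 82.1 and 91.4 at 10 min and 199 and 216 at 60 min, highest at 60 min (log2 change 3.11, SE 0.101, limma adjusted p = 6.80e-08), and MSN2 rose by 0.27 on the log2 scale, or by 0.23 and not called without the second 60 min library. PDE1, which degrades cyclic AMP, had signals of 115 and 117 in the untreated libraries, 215 and 214 at 10 min and 1036 and 1058 at 60 min, also highest at 60 min (log2 change 3.16, SE 0.0619, limma adjusted p = 8.21e-09). GPR1, the glucose receptor, had signals of 70.4 and 82.6 in the untreated libraries and 266 and 247 at 60 min (log2 change 1.74). RAS1, an activator of adenylate cyclase, had signals of 304 and 260.3 in the untreated libraries and 49.8 and 52.2 at 60 min (log2 change -2.44). XBP1, a stress-induced repressor, had signals of 2.99 and 1.87 in the untreated libraries and 23.9 and 22.03 at 60 min (log2 change 2.82).

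Antioxidant genes were called higher for 21 and lower for 8 of 35. The peroxiredoxin TSA2 had signals of 238 and 178 in the untreated libraries, 557 and 506 at 10 min and 4109 and 4013 at 60 min, highest at 60 min (log2 change 4.30, SE 0.131, limma adjusted p = 4.99e-08). TSA1, its main form, had signals of 12584 and 12000 in the untreated libraries and 14135 and 14092 at 60 min and was not called (log2 change 0.20). SRX1, which restores oxidised peroxiredoxin, was at a log2 change of 2.92, and the glutathione transferase GTT1 was at a log2 change of 2.43. MXR1, a methionine sulfoxide reductase, was at a log2 change of -2.24. Among aldehyde, alcohol and aryl-alcohol dehydrogenases 17 of 26 were higher and 7 lower. ALD2, a cytosolic stress form, had signals of 53.4 and 55.4 in the untreated libraries, 110.4 and 101 at 10 min and 1513 and 1521 at 60 min (log2 change 4.78, SE 0.0704, limma adjusted p = 5.02e-09). ALD6, the main cytosolic form in glucose, had signals of 3607 and 3326 in the untreated libraries, 5244 and 4696 at 10 min and 256 and 238 at 60 min (log2 change -3.81, SE 0.0895, limma adjusted p = 1.48e-08). At 10 min both lay above untreated, and at 60 min ALD2 was highest and ALD6 lowest. AAD10, of a family of near-identical copies, had signals of 28.6 and 31.9 in the untreated libraries and 588 and 523 at 60 min (log2 change 4.15).

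Autophagy genes were higher, as 29 of 34 were higher and 4 lower (median log2 change 1.12). ATG8, the ubiquitin-like protein of the autophagosome membrane, had signals of 124 and 119.7 in the untreated libraries, 369 and 353 at 10 min and 1197 and 1379 at 60 min, highest at 60 min (log2 change 3.39, SE 0.0836, limma adjusted p = 1.83e-08). AMS1, a vacuolar mannosidase delivered by this route, had signals of 34.6 and 38.04 in the untreated libraries and 316 and 279.8 at 60 min. The conjugation protein ATG5 was lower at a log2 change of -0.94. UME6, a repressor of ATG8 and of early meiotic genes, had signals of 77.2 and 61.5 in the untreated libraries, 71.8 and 77.4 at 10 min and 14.9 and 16.1 at 60 min. At 10 min it overlapped untreated and at 60 min it was lowest (log2 change -2.08, SE 0.119, limma adjusted p = 1.49e-06).

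Among vacuolar genes 15 of 32 were higher and 8 lower. Carboxypeptidase CPS1 had signals of 212 and 213 in the untreated libraries, 979 and 871 at 10 min and 4148 and 4338 at 60 min (log2 change 4.32, SE 0.0798, limma adjusted p = 6.62e-09). Aminopeptidase I, encoded by LAP4, had signals of 129 and 130.03 in the untreated libraries, 477 and 458 at 10 min and 1773 and 1746 at 60 min (log2 change 3.76, SE 0.0639, limma adjusted p = 6.29e-09). Both were highest at 60 min. VTC3, for polyphosphate synthesis, was at a log2 change of -2.03. For the proteasome 1 of 35 were higher and 28 lower (median log2 change -0.39, or 0.29 under total-signal scaling). The gene called higher was the regulator RPN4, with signals of 161 and 169 in the untreated libraries and 252 and 257 at 60 min (log2 change 0.62, SE 0.0693, limma adjusted p = 8.02e-05).

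At the cell surface, seripauperin genes were mostly higher, and cell wall genes were called in both directions. For the seripauperins and the DAN and TIR mannoproteins 22 of 29 were higher and 3 lower (median log2 change 2.36), against 4 higher and 2 lower at 10 min. PAU2 had signals of 119 and 113 in the untreated libraries, 150.0 and 151 at 10 min and 5930 and 5994 at 60 min. PAU24 had signals of 75.2 and 54.4 in the untreated libraries, 48.3 and 48.9 at 10 min and 1254 and 1526 at 60 min. At 10 min PAU2 lay above and PAU24 below untreated by little, and at 60 min both were far higher (log2 changes 5.67 and 4.41). PAU genes are near-identical, so signal may be shared between copies. Among cell wall genes 21 of 42 were higher and 11 lower, where 38.6% and 38.5% of all genes were. PIR3, a wall protein linked to glucan, had signals of 14.5 and 13.5 in the untreated libraries, 11.6 and 15.1 at 10 min and 1378 and 1251 at 60 min. Its 10 min libraries spanned the untreated ones, and 60 min was far higher (log2 change 6.45, SE 0.123, limma adjusted p = 7.80e-09). SED1, an abundant wall mannoprotein, had signals of 5195 and 2992 in the untreated libraries, 5601 and 5825 at 10 min and 17114 and 19841 at 60 min (log2 change 2.22). SLT2, the kinase of the cell wall integrity pathway, had signals of 315 and 268 in the untreated libraries, 392.1 and 371 at 10 min and 1575 and 1596 at 60 min (log2 change 2.44). GAS3, of the glucan-remodelling family, was at a log2 change of -2.52.

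Lipid genes changed at particular steps. In fatty acid oxidation and the carnitine shuttle 25 of 33 were higher and 3 lower (median log2 change 0.69). The carnitine acetyltransferase YAT2 had signals of 19.6 and 19.4 in the untreated libraries, 29.0 and 26.5 at 10 min and 623 and 607 at 60 min (log2 change 4.91, SE 0.0749, limma adjusted p = 5.02e-09). CRC1, the mitochondrial acylcarnitine carrier, had signals of 1.33 and 0.746 in the untreated libraries, 7.64 and 4.40 at 10 min and 51.7 and 42.0 at 60 min (log2 change 4.56, SE 0.263, limma adjusted p = 1.63e-06). Both were highest at 60 min. In fatty acid synthesis the elongases parted. FEN1, which makes very long chains, had signals of 689 and 700.4 in the untreated libraries and 109.6 and 112 at 60 min (log2 change -2.64). SUR4, of the same pathway, had signals of 1157 and 1126 in the untreated libraries and 149.9 and 164 at 60 min (log2 change -2.86). ELO1, which acts on shorter chains, rose by 1.39 on the log2 scale.

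The methyltransferases that turn phosphatidylethanolamine into phosphatidylcholine were unlike. CHO2, which adds the first methyl group, had signals of 353 and 377 in the untreated libraries, 706 and 631 at 10 min and 158 and 157 at 60 min. OPI3, which adds the others, had signals of 391.5 and 388 in the untreated libraries, 806 and 670.1 at 10 min and 2724 and 2767 at 60 min. At 10 min both lay above untreated, and at 60 min CHO2 was below it and OPI3 above it, with log2 changes of -1.21 (SE 0.0779, limma adjusted p = 3.05e-06) and 2.81 (SE 0.0947, limma adjusted p = 8.24e-08). Among ergosterol genes 11 of 32 were higher and 11 lower (median log2 change -0.051, or 0.63 under total-signal scaling). The sterol importers PDR11 and AUS1 rose, with log2 changes of 1.84 and 1.06.

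Phosphate and metal genes were called in both directions, against 38.6% of all genes called higher and 38.5% lower. In the phosphate list 6 of 20 were higher and 13 lower (median log2 change -0.66, or 0.018 under total-signal scaling). PHO89, the sodium-phosphate cotransporter, had signals of 391 and 386 in the untreated libraries, 199.5 and 156 at 10 min and 17.4 and 11.97 at 60 min, lowest at 60 min (log2 change -4.65, SE 0.172, limma adjusted p = 1.38e-07). PHO3, an acid phosphatase, had signals of 798 and 671 in the untreated libraries and 55.8 and 62.9 at 60 min (log2 change -3.60). In the metal list 12 of 39 were higher and 16 lower (median -0.16, or 0.48 under total-signal scaling). The iron oxidase FET3 had signals of 497 and 457 in the untreated libraries and 98.3 and 96.1 at 60 min (log2 change -2.28), and its permease partner FTR1 was at a log2 change of -1.40. Heme oxygenase HMX1 had signals of 18.4 and 21.7 in the untreated libraries, 56.9 and 53.5 at 10 min and 245 and 240.0 at 60 min, highest at 60 min (log2 change 3.54, SE 0.0920, limma adjusted p = 2.38e-08). The manganese transporter SMF1 was at a log2 change of 1.97, and the zinc transporter ZRT1 was at a log2 change of 1.83.

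Histone and cell cycle genes were mostly called lower by the authors' scaling. Of histone genes, 9 of 11 were lower and 0 higher (median log2 change -1.503). HHF1, for histone H4, had signals of 5962 and 5837 in the untreated libraries and 1454 and 1702 at 60 min (log2 change -1.91). The H3 gene HHT2 and the centromeric form CSE4 were not called, with log2 changes of -0.060 and -0.053. Among cyclins and related genes 2 of 42 were higher and 34 lower (median -0.54, or 0.12 under total-signal scaling). CLB6, an S-phase cyclin, had signals of 47.8 and 49.5 in the untreated libraries and 8.22 and 7.41 at 60 min (log2 change -2.49, SE 0.120, limma adjusted p = 5.73e-07). CLN3, the G1 cyclin most tied to growth, had signals of 167 and 130.03 in the untreated libraries and 60.2 and 59.2 at 60 min (log2 change -1.29). PCL5, a cyclin that acts on Gcn4, rose by 1.20 on the log2 scale. Among early meiotic genes 13 of 21 were higher and 5 lower. NDT80, the activator of middle meiosis, had signals of 7.15 and 6.27 in the untreated libraries and 21.4 and 23.1 at 60 min (log2 change 1.596). The meiotic inducer IME1 had signals of 56.1 and 43.6 in the untreated libraries and 33.7 and 36.0 at 60 min, without overlap. Its log2 change of -0.49 became -0.45, not called, without the first 60 min library, and 0.17 under total-signal scaling.

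RNA processing genes were mostly called lower by the authors' scaling. Among spliceosome genes 20 of 90 were higher and 47 lower (median log2 change -0.25, or 0.43 under total-signal scaling). PRP43, a helicase that also serves ribosome assembly, had signals of 467 and 423 in the untreated libraries and 46.8 and 37.8 at 60 min (log2 change -3.37). SNU13, a protein shared with small nucleolar particles, had signals of 2165 and 2309 in the untreated libraries and 282 and 204 at 60 min (log2 change -3.22). At the other end ECM2, IST3, LEA1 and PRP5 of the early spliceosome rose, with log2 changes of 1.33, 1.28, 1.28 and 1.152. In mRNA decay and export 4 of 45 were higher and 33 lower (median -0.49, or 0.17 under total-signal scaling). MTR4, a nuclear exosome helicase, was at a log2 change of -3.002, and the export adaptor YRA1 was at a log2 change of -2.34. EDC2, an enhancer of decapping, rose by 1.16 on the log2 scale.

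**Figure D5:**
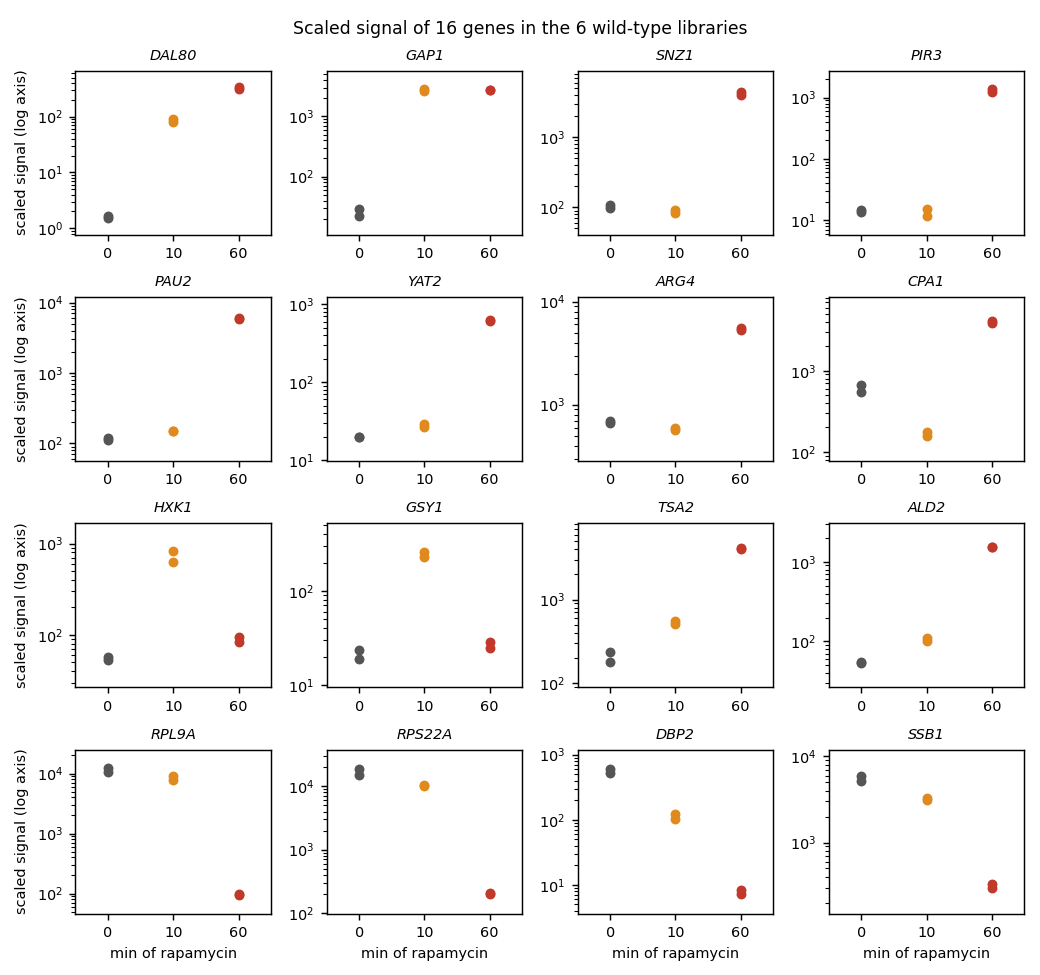
Scaled signal (y axis, log scale) of 16 genes in the 6 wild-type libraries by min of rapamycin (x axis, 0 being untreated), with 1 point per library. SNZ1, PIR3, PAU2, YAT2 and ARG4 stand high at 60 min alone and GSY1 at 10 min alone, CPA1 lies below untreated at 10 min and above it at 60 min, and the 4 genes of the bottom row, RPL9A, RPS22A, DBP2 and SSB1, are lowest at 60 min.

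The 16 plotted genes were chosen after their values were seen, to show the different orders of the groups. Some of the 20 largest rises belong to no list. GPG1, proposed to act with the G protein of the glucose receptor, had signals of 19.1 and 22.1 in the untreated libraries, 61.8 and 62.5 at 10 min and 1378 and 1365 at 60 min (log2 change 5.99, SE 0.0816, limma adjusted p = 5.02e-09). AMD2, a putative amidase, had signals of 22.3 and 27.2 in the untreated libraries, 122 and 122 at 10 min and 1013 and 1020 at 60 min (log2 change 5.31, SE 0.0941, limma adjusted p = 6.29e-09). The short reading frame YCL048W-A had signals of 1.01 and 1.89 in the untreated libraries, 3.66 and 8.16 at 10 min and 229 and 199.9 at 60 min (log2 change 6.48, SE 0.311, limma adjusted p = 5.76e-07). In all 3 the 60 min libraries were highest and did not overlap the untreated ones. MOH1 and RRT1 are neighbours in the same orientation. MOH1 had signals of 10.1 and 6.37 in the untreated libraries and 303 and 293 at 60 min (log2 change 5.05). RRT1 had signals of 3.53 and 3.65 in the untreated libraries and 143 and 129.8 at 60 min (log2 change 4.90). YMR118C, which R64 names SHH3, had signals of 1.62 and 2.40 in the untreated libraries, 2.65 and 1.49 at 10 min and 158 and 147 at 60 min. YLR053C, which R64 names NRS1, had signals of 2.54 and 3.65 in the untreated libraries, 77.3 and 67.7 at 10 min and 203 and 271 at 60 min. YMR118C was high at 60 min alone and YLR053C at both times. Their untreated signals lay at 3.65 or less, where the pseudocount of 1 makes log2 changes of 5.68 and 5.86 understatements.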

How the data were processed

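Poly(A) RNA was sequenced from 8 libraries. Per the submitters' processing notes, TopHat, Bowtie and the sacCer3 build were used, whose versions were not listed. The authors deposited 1 table of gene coordinates and signal per gene, unscaled and scaled, and the scaled signal is the unscaled divided by 1 constant per library. The labels neither say how that constant was chosen nor mention spike-in RNA. The deposited signal is not whole reads, so depth is unknown and counting error could not be computed, while the number of libraries limits precision. The 10 per-sample columns of the remaining libraries and of unscaled signal were not used. Of the deposited names, 5941 matched R64, 97.0% of them with the same coordinates.

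The names of the columns set the groups and carry a library number and no replicate number. Genes with a mean scaled signal of at least 1 were tested with limma 3.58.1 (trend) in R 4.3.3 on log2(scaled signal + 1), the 6 wild-type libraries together with group as the term. P-values were adjusted over all 6127 genes. The procedure was also run on simulated libraries with independent noise per gene and 200 changed genes. It recovered 80.3% of 1.5-fold and 98.5% of 2-fold changes, with 11 calls among unchanged genes. Those libraries held no error shared by a whole library, so the run cannot show how such error would affect the calls. Other tables and figures were made in Python 3.11.15. The members, gene lists, motifs and pairs were chosen with earlier results of these data known. Genes that could be named, of which the text uses some, were the 20 largest rises and falls without overlap and with a mean signal of at least 10, up to 4 called rises and 4 called falls per list with that mean, all members of lists of at most 15 genes, the gene pairs, and regulators. Alternatives changed the pseudocount, filter, scaling, libraries, variance trend, length weighting and motif window. Some listed genes were not analysed here.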

Additional observations from a re-analysis of the deposited data

How the results depend on the processing

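By the authors' scaling 2365 genes were called higher, 2360 lower, and 30 list medians lay above 0. Median-of-ratios scaling gave 2375 higher, 2348 lower and 30 list medians above 0. Its factors were 0.999 to 1.005, so it hardly altered the authors' values and is no separate check on their scaling. Scaled to the total, 3997 were higher and 1125 lower and 49 list medians lay above 0. The list medians that changed sign were mitochondrial ribosomal proteins 0.34, ribosomal regulators 0.18, branched-chain amino acids 0.015, threonine to asparagine synthesis 0.58, purines 0.020, hexose transport 0.26, pentose phosphate 0.39, proteasome 0.29, cell cycle 0.12, flocculins 0.36, phosphate 0.018, metals 0.48, ergosterol 0.63, fatty acid synthesis 0.29, spliceosome 0.43, mRNA decay and export 0.17, mating 0.054, secretion 0.10, mitochondrial import 0.45. The called genes named that changed sign there were IME1 0.17, PGM1 0.32, SAP185 0.027, STE2 0.24 and TAL1 0.39 (log2 changes). CSE4 0.62, GPD1 0.64, HHT2 0.62, HSP82 0.57, SFP1 0.67, SSA3 0.58 and TOR2 0.59, not called and at or below 0 by the authors' scaling, were called higher there. Scaled to the total outside ribosomal protein genes, 2875 were higher and 1888 lower, and 3 medians changed sign, threonine to asparagine synthesis at 0.13, metals at 0.057 and ergosterol at 0.17. A minimum mean of 10 moved the protein kinase A list to -0.025, and leaving out the first untreated library the phospholipid list to -0.044 (range to 0.037 over the libraries left out). The ribosomal protein share before and at 60 min was 30.8% and 3.72% with signal divided by gene length, and 22.4% and 1.66% multiplied by it, which was chosen after seeing the data. Leaving out 1 library gave 2061 to 2385 higher, 2138 to 2382 lower and 29 to 30 list medians above 0. Of 228 genes named in 15 settings (3418 values), 3380 kept their side of the threshold and, where called, their direction, 12 were no longer called, 21 became called and 5, called by the authors' scaling, changed sign. With genes not called counted too, 30 values changed sign, 12 of them under total-signal scaling. The cause was not tested. Whole reads could not be recovered, so edgeR and DESeq2 were not run. No paired analysis was possible because the columns carry library numbers and no replicate numbers.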

Other observations

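Several lists were not described above. In threonine, serine, glycine, proline, alanine and asparagine synthesis 8 of 20 were higher and 10 lower, and the alanine transaminases parted. ALT1, the mitochondrial form, had signals of 289.7 and 269.8 in the untreated libraries, 1344 and 1228 at 10 min and 2062 and 2091 at 60 min (log2 change 2.89, SE 0.0775, limma adjusted p = 2.78e-08). ALT2, its cytosolic relative, had signals of 91.2 and 95.6 in the untreated libraries, 69.0 and 68.6 at 10 min and 25.4 and 24.5 at 60 min (log2 change -1.86, SE 0.0738, limma adjusted p = 1.96e-07). SHM2, the cytosolic serine hydroxymethyltransferase, had signals of 2122 and 1987 in the untreated libraries, 978 and 914 at 10 min and 3308 and 3166 at 60 min, low at 10 min and highest at 60 min (log2 change 0.66). Among mating genes 5 of 17 were higher and 10 lower (median log2 change -0.62, or 0.054 under total-signal scaling). STE12, the transcription factor of the pheromone response, had signals of 86.6 and 88.9 in the untreated libraries, 52.6 and 56.4 at 10 min and 33.6 and 37.0 at 60 min (log2 change -1.29, SE 0.0830, limma adjusted p = 3.03e-06), and STE4, the beta subunit of its G protein, was at a log2 change of -1.38. In translocation, glycosylation and vesicle transport 4 of 46 were higher and 32 lower (median -0.58, or 0.10 under total-signal scaling). ALG5, of dolichol-linked sugar synthesis, was lower at a log2 change of -1.55, and ARF2, a GTPase of vesicle budding, was higher at a log2 change of 0.51. Of flocculin genes and their regulators, FLO9 was the 1 called higher of 13, at a log2 change of 1.41 from 7.72 and 5.22 in the untreated libraries to 18.1 and 19.0.

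Genes within 50000 bases of a chromosome end were called higher more often than those beyond in these counts. Between 10000 and 20000 bases from an end, 73 of 125 genes were higher and 20 lower, and within 10000 bases 47 of 102 and 17. Beyond 50000 bases 37.3% were higher and 39.97% lower. Many of the PAU, AAD and THI families, whose copies are near-identical, lie near ends, and their part in the counts by distance was not tested. Of 66 annotated snoRNA genes in this poly(A) RNA, 11 were higher and 37 lower (median log2 change -1.07). The labels do not say how reads of snoRNA genes inside other genes were counted.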
